A study of Rattus norvegicus with 46 samples.

Results

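The 4 genes described here encode membrane proteins by which astrocytes handle water, glutamate and cell-to-cell coupling in the healthy brain: Aqp4, Gja1, Slc1a2 and Slc1a3. They were chosen by their Ensembl gene IDs (ENSRNOG00000016043, ENSRNOG00000000805, ENSRNOG00000005479 and ENSRNOG00000016163, in that order) and make up 4 of the 30452 genes in the deposited count table. The rule lists IDs and sets no threshold on a measured value. The symbols were taken with the IDs, because the files give IDs only. RNA was measured in 46 brain libraries of male Wistar rats that were 3 months old when the diets began. Lesions were sampled 14 days after MCAO (middle cerebral artery occlusion, a rat model of ischemic stroke). The groups were MCAO lesions from rats on a ketogenic diet (MCAO_KD, 19 libraries), MCAO lesions from rats on a standard diet given ad libitum (MCAO_AL, 11 libraries), intact brain on the ketogenic diet (Intact_KD, 8 libraries) and intact brain on the standard diet (Intact_AL, 8 libraries). The ketogenic diet took 84% of its energy from fat and 5% from carbohydrate, against 11% and 65% in the standard diet. Each was fed for 2 months before MCAO and for 2 weeks after it. The labels give no genotype, sham operation or lesion size, nor do they say that each library came from a separate rat, so p-values measure the spread between these libraries. Libraries are named by group and sample number.

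Astrocytes take up the glutamate that neurons release, move water across the endfeet that wrap blood vessels, and form a network of cells joined by gap junctions. Aqp4 encodes aquaporin-4, the main water channel of the brain, which is concentrated in those endfeet. Gja1 encodes connexin43, the main gap junction protein of astrocytes, through which ions and small molecules pass between cells. Slc1a2 encodes GLT-1, the glutamate transporter that carries most glutamate uptake in the adult forebrain, and Slc1a3 encodes GLAST, the other astrocytic glutamate transporter. After a stroke, astrocytes at the lesion border become reactive and form a scar around the damaged core.

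The start regions of 3 of these genes are shown because they hold a match to a motif that was searched. Each runs 300 bases along the gene's strand, in RefSeq sequence of build GRCr8, which is not the build of the counts, and capitals mark the match. The Gja1 region lies at chr20:36302314-36302613 on the + strand, the Aqp4 region at chr18:6798793-6799092 on the - strand, and the Slc1a2 region at chr3:109459859-109460158 on the + strand.
Gja1: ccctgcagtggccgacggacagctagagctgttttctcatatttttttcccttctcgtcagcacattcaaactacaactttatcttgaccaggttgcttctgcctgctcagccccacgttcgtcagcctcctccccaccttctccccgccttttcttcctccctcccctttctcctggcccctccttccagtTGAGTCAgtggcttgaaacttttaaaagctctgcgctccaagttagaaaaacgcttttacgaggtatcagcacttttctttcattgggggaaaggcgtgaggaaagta
Aqp4: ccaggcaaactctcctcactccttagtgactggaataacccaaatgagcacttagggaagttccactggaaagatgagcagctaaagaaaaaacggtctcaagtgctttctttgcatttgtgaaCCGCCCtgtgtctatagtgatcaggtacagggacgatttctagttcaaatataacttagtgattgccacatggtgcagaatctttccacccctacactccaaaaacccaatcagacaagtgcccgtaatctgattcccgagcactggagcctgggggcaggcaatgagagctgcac
Slc1a2: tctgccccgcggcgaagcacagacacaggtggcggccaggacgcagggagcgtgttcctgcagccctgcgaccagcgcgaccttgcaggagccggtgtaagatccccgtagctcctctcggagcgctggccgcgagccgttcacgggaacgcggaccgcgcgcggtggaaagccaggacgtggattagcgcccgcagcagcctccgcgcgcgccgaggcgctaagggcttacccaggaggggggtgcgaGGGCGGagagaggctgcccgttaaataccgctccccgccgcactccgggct
All 4 genes matched the RefSeq promoter table, with 8 start sites in total. The AP-1 motif TGANTCA, bound by Fos and Jun proteins, occurred in the Gja1 region and at none of the other start sites. It is held by 7.33% of the 33469 promoter regions of that length. The SP1 motif GGGCGG, searched on both strands, occurred once in the Aqp4 region above, as CCGCCC, and once in the Slc1a2 region above, against 33.1% of all promoter regions. The STAT motif TTCNNNGAA was in none of the 8 regions and in 8.87% of all. None of the matches overlapped another motif, and a match in these letters is not a bound site.

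Every one of the 4 genes was well covered, with at least 1011 counts in each of the 46 libraries. Library totals were 15290782 to 30601841 counts in MCAO_KD, 17068206 to 22664327 in MCAO_AL, 12911844 to 20420918 in Intact_KD and 8883068 to 18868791 in Intact_AL. Levels are CPM, a gene's counts relative to the library total, scaled by TMM over all 46 libraries. CPM is not divided by transcript length, so levels are compared within a gene and not between genes. The remaining gene IDs could not be named, so markers of astrocytes, neurons, microglia and other cells could not be read, and the labelled tissue was not checked against them. In bulk tissue, a change in the number of astrocytes and a change in RNA per astrocyte cannot be told apart.

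In lesions sampled 14 days after MCAO, the water channel and the gap junction gene were higher than in intact brain on both diets. On the ketogenic diet the fold was 2.18 for Aqp4 and 1.80 for Gja1, and on the standard diet it was 2.08 for Aqp4 and 1.51 for Gja1. Neither glutamate transporter passed the test on either diet, except that with library totals only, Slc1a2 and Slc1a3 both passed as higher on the standard diet (edgeR adjusted p = 0.0463 and 0.0120), and both had positive but uncalled values on the ketogenic diet. That scaling moved the median of all genes by 0.25 (log2) on the ketogenic diet and by 0.34 on the standard diet. Relative to this shift, the log2 fold changes on the ketogenic and standard diets were 1.14 and 1.06 for Aqp4, 0.86 and 0.61 for Gja1, -0.19 and 0.21 for Slc1a2, and -0.11 and -0.05 for Slc1a3. Most genes changed in these lesions: edgeR called 69.1% of 15862 genes in MCAO_KD against Intact_KD (35.2% higher, 33.9% lower) and 68.4% of 15446 genes in MCAO_AL against Intact_AL (34.3% higher, 34.1% lower). Of the 4 genes, 2 were called higher and 0 lower in each contrast, a share that does not set them apart from that background. Their median log2 fold change was 0.37 on the ketogenic diet, beside -0.00 over all genes, and 0.41 on the standard diet, beside -0.01.

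**Figure D1:**
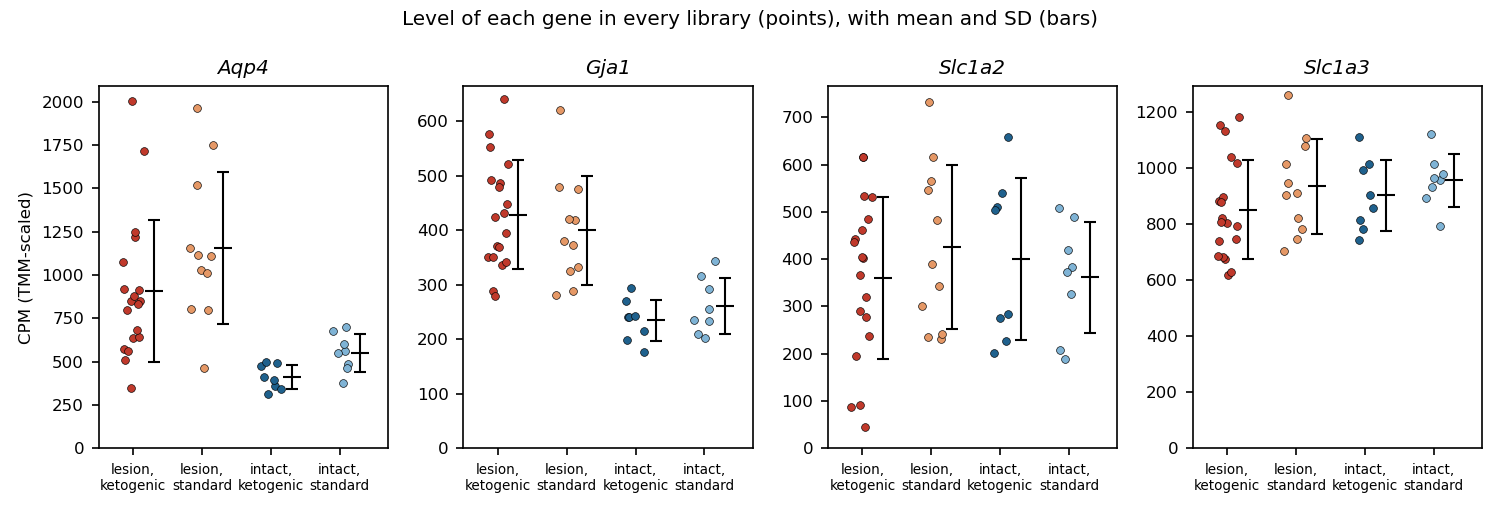
TMM-scaled CPM (linear axis from 0) of each gene in every library, with points for libraries and bars for the mean and SD, over MCAO_KD (19), MCAO_AL (11), Intact_KD (8) and Intact_AL (8). Aqp4 and Gja1 lie mostly above intact brain in both lesion groups, Slc1a2 spreads from 45.7 to 616 CPM in MCAO_KD, and Slc1a3 overlaps throughout.

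For Aqp4, the lowest, median and highest levels were 348, 850 and 2006 CPM in MCAO_KD (mean 909 ± 410, SD, n = 19), against 313, 404 and 497 CPM in Intact_KD (411 ± 70.6, SD, n = 8). On the standard diet they were 462, 1112 and 1966 CPM in MCAO_AL (1157 ± 438, SD, n = 11), against 375, 555 and 699.7 CPM in Intact_AL (552 ± 109.7, SD, n = 8). The groups overlapped by a single lesion in each diet: 18 of 19 MCAO_KD libraries and 10 of 11 MCAO_AL libraries lay above the highest intact library of their diet, the exceptions being MCAO_KD_39 and MCAO_AL_69. The log2 fold change was 1.12 (SE 0.23, 95% interval 0.65 to 1.60, edgeR adjusted p = 0.000132) in MCAO_KD against Intact_KD. In MCAO_AL against Intact_AL it was 1.05 (SE 0.21, 95% interval 0.62 to 1.49, edgeR adjusted p = 0.000169). Ordered by mean, Aqp4 was highest in MCAO_AL, then MCAO_KD, Intact_AL and Intact_KD, and each neighbouring pair in that order overlapped in its mean ± SD.

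For Gja1, the lowest, median and highest levels were 280.0, 424 and 641 CPM in MCAO_KD (428 ± 99.7, SD, n = 19), against 177, 241 and 294 CPM in Intact_KD (235 ± 37.6, SD, n = 8). On the standard diet they were 281, 380.1 and 621 CPM in MCAO_AL (399.7 ± 99.8, SD, n = 11), against 203, 246 and 344 CPM in Intact_AL (261 ± 51.0, SD, n = 8). Every lesion exceeded the median of intact brain on its diet, and 17 of 19 MCAO_KD and 7 of 11 MCAO_AL libraries exceeded its highest library. The log2 fold change was 0.85 (SE 0.14, 95% interval 0.56 to 1.13, edgeR adjusted p = 6.02e-06) in MCAO_KD against Intact_KD. In MCAO_AL against Intact_AL it was 0.60 (SE 0.14, 95% interval 0.30 to 0.90, edgeR adjusted p = 0.000992). By mean, Gja1 was highest in MCAO_KD, then MCAO_AL, Intact_AL and Intact_KD, and the step that exceeded the replicate error in the edgeR test was the one between lesion and intact brain.

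The transporter Slc1a2 did not pass the test between lesions and intact brain, and its levels spread widely in all 4 groups. Its lowest, median and highest levels were 45.7, 402 and 616 CPM in MCAO_KD (360.0 ± 172, SD, n = 19), against 202, 394 and 658 CPM in Intact_KD (400.0 ± 172, SD, n = 8). On the standard diet they were 232, 389 and 732 CPM in MCAO_AL (426 ± 173, SD, n = 11), against 188, 378 and 508 CPM in Intact_AL (362 ± 118, SD, n = 8). In MCAO_KD, 3 libraries held far less Slc1a2 than the rest, MCAO_KD_11 at 45.7 CPM, MCAO_KD_39 at 86.7 CPM and MCAO_KD_5 at 91.8 CPM, and 4 of 19 lay below the lowest Intact_KD library. In MCAO_AL, 4 of 11 libraries lay above the highest Intact_AL library and 0 below the lowest. The highest level was 13.5 times the lowest in MCAO_KD and 3.16 times in MCAO_AL, against 3.26 times in Intact_KD and 2.70 times in Intact_AL. The log2 fold change was -0.17 (SE 0.33, 95% interval -0.85 to 0.51, edgeR adjusted p = 0.657) in MCAO_KD against Intact_KD, and 0.22 (SE 0.24, 95% interval -0.28 to 0.72, edgeR adjusted p = 0.422) in MCAO_AL against Intact_AL. Group means ran from MCAO_AL through Intact_KD and Intact_AL to MCAO_KD, and no neighbours in that order differed beyond their SD.

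Slc1a2 varied more within every group than most abundant genes did. Its SD on the log2 scale was 1.04 in MCAO_KD, 0.60 in MCAO_AL, 0.65 in Intact_KD and 0.53 in Intact_AL. Among the 2065 genes that averaged 100 CPM or more, 96.7%, 93.9%, 98.9% and 98.0% had a smaller SD in those groups, in the same order. Aqp4 had an SD of 0.60 in MCAO_KD and 0.58 in MCAO_AL, against 0.25 in Intact_KD and 0.30 in Intact_AL. It too varied more than most of those genes, with 75.4%, 93.4%, 74.3% and 88.8% of them smaller in SD, in the same order. The SD of Slc1a3 was 0.29, 0.26, 0.20 and 0.14 in MCAO_KD, MCAO_AL, Intact_KD and Intact_AL, and that of Gja1 was 0.33, 0.34, 0.24 and 0.28. The median SD of those genes was 0.36, 0.26, 0.19 and 0.17 in the same order.

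The other transporter, Slc1a3, had the smallest SD of the 4 genes on the log2 scale in each group. Its lowest, median and highest levels were 619.6, 809 and 1184 CPM in MCAO_KD (853 ± 178, SD, n = 19), against 745, 883 and 1114 CPM in Intact_KD (904 ± 128, SD, n = 8). On the standard diet they were 703, 911 and 1262 CPM in MCAO_AL (936 ± 171, SD, n = 11), against 793, 962 and 1125 CPM in Intact_AL (958 ± 94.96, SD, n = 8). Lesions fell on both sides of intact brain, with 3 of 19 MCAO_KD libraries above its highest value and 6 below its lowest, and with 1 of 11 MCAO_AL libraries above and 3 below. The log2 fold change was -0.10 (SE 0.12, 95% interval -0.35 to 0.14, edgeR adjusted p = 0.450) in MCAO_KD against Intact_KD and -0.05 (SE 0.11, 95% interval -0.27 to 0.17, edgeR adjusted p = 0.693) in MCAO_AL against Intact_AL. Group means ran from Intact_AL through MCAO_AL and Intact_KD to MCAO_KD, and no neighbours differed beyond their SD. None of the 4 genes had lesion and intact ranges free of overlap, while 14.9% of 14645 genes had them in MCAO_KD against Intact_KD and 23.1% of 14619 genes in MCAO_AL against Intact_AL.

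**Figure D2:**
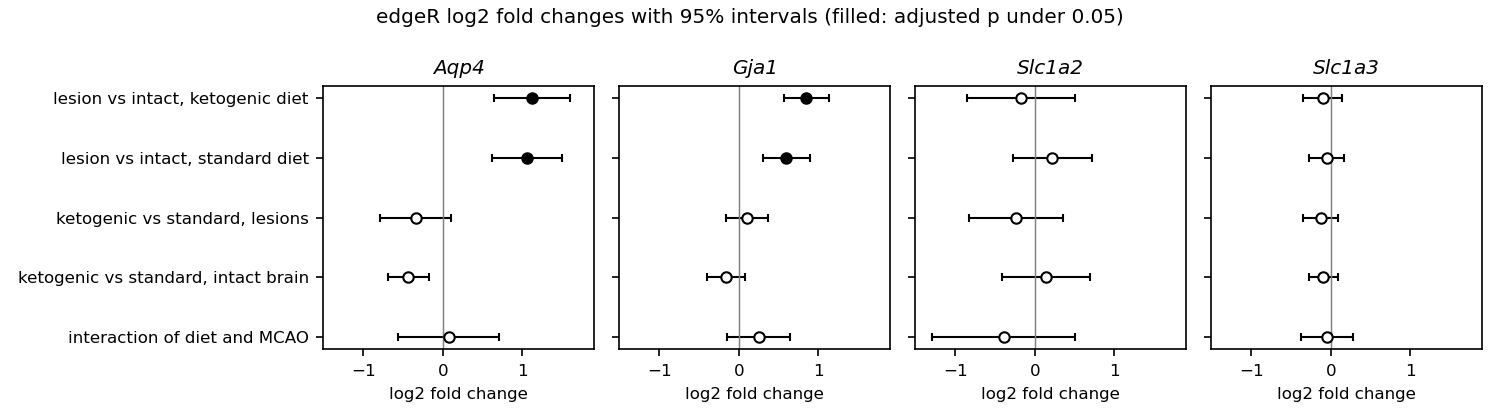
edgeR log2 fold changes (x axis) with 95% intervals for each gene in the 4 contrasts and the interaction of diet and MCAO, filled where the adjusted p over all genes is under 0.05. With TMM scaling, Aqp4 and Gja1 are called in both lesion contrasts at 0.60 to 1.12 and no other point is filled, while scaling by library totals alone also called Slc1a2 and Slc1a3 on the standard diet.

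The ratio of 2 genes within a library does not depend on how libraries are scaled, and 6 such ratios were compared over 4 contrasts by two-sided permutation tests, adjusted over 24. The share of Aqp4 and Gja1 relative to Slc1a3 separated lesions from intact brain with the smallest p of these ratios. The log2 count ratio of Aqp4 to Slc1a3 averaged -0.00 ± 0.45 in MCAO_KD (SD, n = 19) and -1.15 ± 0.31 in Intact_KD (SD, n = 8), and it averaged 0.23 ± 0.45 in MCAO_AL (SD, n = 11) and -0.82 ± 0.23 in Intact_AL (SD, n = 8). These are differences of 1.14 (exact permutation, adjusted p = 2.70e-05) and 1.05 (exact permutation, adjusted p = 0.000794), and 17 of 19 and 10 of 11 lesions lay above every intact library of their diet. For Gja1 to Slc1a3 the mean was -1.002 ± 0.36 in MCAO_KD and -1.95 ± 0.33 in Intact_KD, a difference of 0.95 (exact permutation, adjusted p = 2.16e-05), with 18 of 19 lesions above every intact library. On the standard diet it was -1.24 ± 0.23 in MCAO_AL and -1.89 ± 0.18 in Intact_AL, a difference of 0.65 (exact permutation, adjusted p = 0.000423), with 10 of 11 above.

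Set against Slc1a2, the water channel was again higher in lesions. Aqp4 to Slc1a2 was higher by 1.33 in MCAO_KD (exact permutation, adjusted p = 0.00811; 14 of 19 lesions above every intact library) and by 0.79 in MCAO_AL (exact permutation, adjusted p = 0.0110; 4 of 11). Gja1 to Slc1a2 was higher by 1.13 in MCAO_KD (exact permutation, adjusted p = 0.0362; 9 of 19), a call that ended when any of 4 of the 27 libraries was left out (highest adjusted p = 0.0661), and by 0.40 in MCAO_AL, where it did not pass (exact permutation, adjusted p = 0.210), except without Intact_AL_83 (exact permutation, adjusted p = 0.0327). The ratio of the transporters to each other, Slc1a2 to Slc1a3, differed by -0.19 in MCAO_KD (exact permutation, adjusted p = 0.684) and by 0.25 in MCAO_AL (exact permutation, adjusted p = 0.355). Aqp4 to Gja1 was 0.40 higher in MCAO_AL than in Intact_AL (exact permutation, adjusted p = 0.0384; 9 of 11 lesions above every intact library and 1 below), but leaving out any of 13 of the 19 libraries ended that call (highest adjusted p = 0.0717). In MCAO_KD that ratio differed by 0.20 (exact permutation, adjusted p = 0.461).

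**Figure D3:**
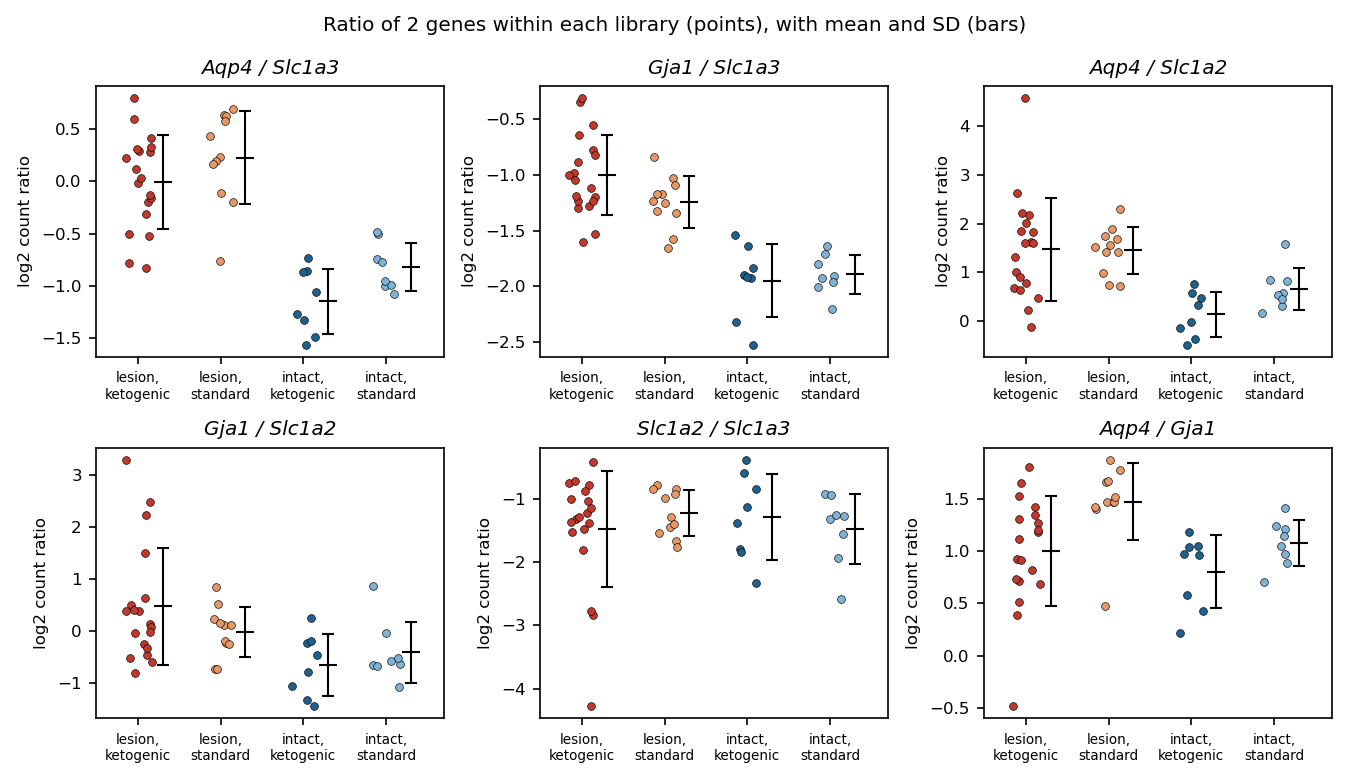
Log2 ratio of the counts of 2 genes within each library (y axis), with points for libraries and bars for the mean and SD, over MCAO_KD, MCAO_AL, Intact_KD and Intact_AL. Aqp4 to Slc1a3 and Gja1 to Slc1a3 are higher in lesions on both diets, by 1.14 and 0.95 in MCAO_KD and by 1.05 and 0.65 in MCAO_AL, and MCAO_KD_11 stands highest in both ratios over Slc1a2.

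The diet changed none of the 4 genes past the threshold. In intact brain, edgeR called 0 of 14746 genes (0%), with 2181 at an unadjusted p under 0.05, 241 called by DESeq2 and 0 by limma voom. Aqp4 had the smallest p of the 4 there, with a log2 fold change of -0.43 in Intact_KD against Intact_AL (SE 0.12, 95% interval -0.69 to -0.18, edgeR p = 0.00198, adjusted p = 0.141). Over the alternatives with all libraries in, its adjusted p ran from 0.0520 with DESeq2 to 0.911 with a covariate for the count share of the top 20 genes, where the log2 fold change was -0.29 (edgeR p = 0.0774). All 8 Intact_KD libraries lay below the Intact_AL median for Aqp4 and 3 lay below its lowest library. The log2 fold changes of the others were 0.14 for Slc1a2 (SE 0.26), -0.09 for Slc1a3 (SE 0.09) and -0.16 for Gja1 (SE 0.12), with edgeR adjusted p between 0.537 and 0.846. The within-library ratios of Aqp4 to Slc1a2 and to Slc1a3 differed by -0.52 and -0.33 (exact permutation, adjusted p = 0.0759 for each), and did not pass. Each passed when 1 library was left out, Intact_KD_51 for the ratio to Slc1a2 (exact permutation, adjusted p = 0.0346) and Intact_KD_59 for the ratio to Slc1a3 (exact permutation, adjusted p = 0.0384). Group ranges did not overlap for 0 of the 4 genes and for 0.0912% of 14262 genes.

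In lesions, edgeR called 117 of 15782 genes by diet (0.741%; 0.463% higher and 0.279% lower in MCAO_KD), none of them among the 4. The log2 fold change in MCAO_KD against MCAO_AL was -0.34 for Aqp4 (SE 0.22, 95% interval -0.79 to 0.10, edgeR adjusted p = 0.548), with 15 of 19 MCAO_KD libraries below the MCAO_AL median. It was 0.11 for Gja1 (SE 0.13, edgeR adjusted p = 0.819), -0.23 for Slc1a2 (SE 0.29, edgeR adjusted p = 0.827) and -0.13 for Slc1a3 (SE 0.11, edgeR adjusted p = 0.712). One ratio passed: Aqp4 to Gja1 averaged 0.9996 ± 0.53 in MCAO_KD (SD, n = 19) and 1.47 ± 0.36 in MCAO_AL (SD, n = 11), a difference of -0.47 (permutation p = 0.0121, adjusted p = 0.0362). MCAO_KD_39, the lesion with the lowest Aqp4, had the lowest such ratio. Leaving out any of 8 of the 30 lesions ended the call (highest adjusted p = 0.0693), as did comparing medians (-0.36, permutation, adjusted p = 0.160).

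The effect of MCAO was not shown to differ between diets for any of the 4 genes. In the fit of diet, MCAO and their product over 46 libraries, edgeR called 0 of 16140 genes (719 at an unadjusted p under 0.05, 2 called by DESeq2 and 13 by limma voom). The interaction was 0.08 for Aqp4 (SE 0.31, 95% interval -0.56 to 0.71), 0.25 for Gja1 (SE 0.20, 95% interval -0.15 to 0.65), -0.39 for Slc1a2 (SE 0.44, 95% interval -1.29 to 0.50) and -0.05 for Slc1a3 (SE 0.16, 95% interval -0.38 to 0.28). With tissue as an additive term, a fit chosen after seeing the data, diet called 4.74% of 16140 genes (2.81% higher with the ketogenic diet, 1.93% lower) and none of the 4. Aqp4 there was -0.38 (SE 0.15, edgeR p = 0.0147, adjusted p = 0.135).

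Across the 30 lesions the genes varied partly together, the closest pairs being the transporters with each other and Aqp4 with Slc1a3. The 6 pairs of log2 CPM were tested by permutation, with p adjusted over the 6. Slc1a2 and Slc1a3 had r = 0.63 (permutation p = 6.00e-05, adjusted p = 0.000180) and rho = 0.75 (permutation, adjusted p = 6.00e-05), and r = 0.78 without the 2 lesions farthest from the median of Slc1a2. Within the diets r was 0.53 in MCAO_KD (permutation, adjusted p = 0.0550) and 0.96 in MCAO_AL (permutation, adjusted p = 6.00e-05). There rho was 0.66 in MCAO_KD (permutation, adjusted p = 0.0176) and 0.95 in MCAO_AL (permutation, adjusted p = 0.000300). MCAO_KD_11 lay off that relation, with Slc1a2 at 45.7 CPM and Slc1a3 at 885 CPM, and r was 0.80 without it. Aqp4 and Slc1a3 had r = 0.72 (permutation, adjusted p = 0.000120) and rho = 0.68 (permutation, adjusted p = 9.00e-05), with r = 0.65 without the 2 farthest lesions. Within diets their r was 0.71 in MCAO_KD (permutation, adjusted p = 0.00288) and 0.68 in MCAO_AL (permutation, adjusted p = 0.0244). In MCAO_AL their rho was 0.55 (permutation, adjusted p = 0.0878), and r was 0.53 without the 2 farthest lesions (permutation, adjusted p = 0.281).

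Aqp4 and Gja1 had r = 0.53 (permutation p = 0.00274, adjusted p = 0.00548) and rho = 0.51 (permutation, adjusted p = 0.00796), with r = 0.62 without the 2 farthest lesions, 0.49 in MCAO_KD (permutation, adjusted p = 0.0627) and 0.81 in MCAO_AL. For Aqp4 and Slc1a2, r was 0.40 (permutation p = 0.0316, adjusted p = 0.0379) and rho was 0.38 (permutation, adjusted p = 0.0569). Without MCAO_KD_23 and MCAO_KD_39, the 2 lesions farthest from the median of Aqp4, r was 0.26 and did not pass (permutation, adjusted p = 0.223). With 1 lesion left out, r ran from 0.27 to 0.54. Within diets r was 0.27 in MCAO_KD (permutation, adjusted p = 0.314) and 0.67 in MCAO_AL (permutation, adjusted p = 0.0244). In MCAO_AL the rho of this pair was 0.55 (permutation, adjusted p = 0.0878), and r was 0.41 without the 2 farthest lesions (permutation, adjusted p = 0.287). The pair Slc1a3 and Gja1 had r = 0.42 (permutation p = 0.0212, adjusted p = 0.0318) and rho = 0.37 (permutation, adjusted p = 0.0569). Without MCAO_AL_61 and MCAO_KD_9, the 2 lesions farthest from the median of Slc1a3, r was 0.29 and did not pass (permutation, adjusted p = 0.208). The r of this pair was 0.35 in MCAO_KD (permutation, adjusted p = 0.216) and 0.73 in MCAO_AL (permutation, adjusted p = 0.0212). Its rho in MCAO_AL was 0.67 (permutation, adjusted p = 0.0566), and r there was 0.41 without the 2 farthest lesions (permutation, adjusted p = 0.287). Slc1a2 and Gja1 had r = 0.04 (permutation p = 0.851, adjusted p = 0.851) and rho = 0.16 (permutation, adjusted p = 0.381). In MCAO_KD their r was -0.11 (permutation, adjusted p = 0.662). In MCAO_AL their r was 0.61 and passed (permutation, adjusted p = 0.0486). There rho was 0.55 (permutation, adjusted p = 0.0878), and r was 0.39 without the 2 farthest lesions (permutation, adjusted p = 0.287). Across the 16 intact libraries, a set added after seeing the data, r for the 6 pairs ran from 0.01 to 0.49 and none passed. Within the intact groups of 8 libraries, only Slc1a3 with Gja1 in Intact_AL passed, at r = 0.82 (permutation, adjusted p = 0.0439). There rho was 0.81 (permutation, adjusted p = 0.109), and r was 0.58 without the 2 farthest libraries (permutation, adjusted p = 0.681). The within-diet values in MCAO_AL rest on 11 lesions.

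**Figure D4:**
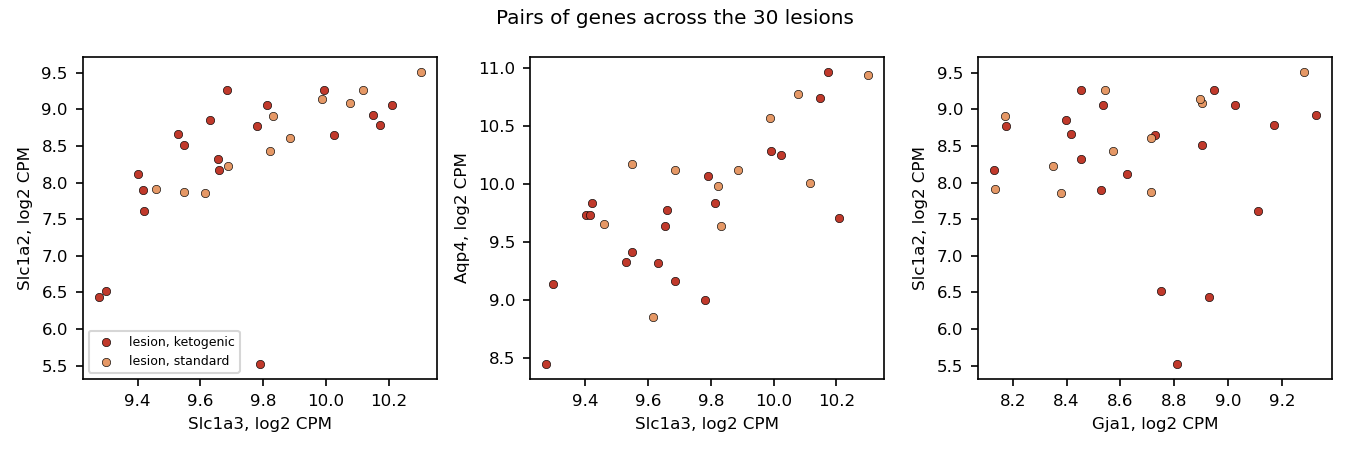
Log2 CPM of gene pairs across the 30 lesions (19 MCAO_KD, 11 MCAO_AL), a point for each lesion. Slc1a2 with Slc1a3 and Aqp4 with Slc1a3 increase together (r = 0.63 and 0.72). Slc1a2 with Gja1 does not over all 30 lesions (r = 0.04), with r = 0.61 in MCAO_AL alone.

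Lesion libraries differed in how far their whole profile lay from intact brain, and Slc1a2 was the gene of the 4 whose r with that distance was largest in size. The position of a library is its projection on the axis that joins the mean profiles of intact brain and lesions, with the 4 genes left out, scaled so that intact brain averages 0 and lesions 1. Positions ran from 0.29 to 1.40 in MCAO_KD and from 0.47 to 1.30 in MCAO_AL, against -0.07 to 0.04 in Intact_KD and -0.09 to 0.15 in Intact_AL. Slc1a2 was lower the farther a lesion lay along this axis, with r = -0.62 (permutation p = 0.000350, adjusted p = 0.00140 over 4) and rho = -0.74 (permutation, adjusted p = 4.00e-05). The 3 lesions lowest in Slc1a2, MCAO_KD_11, MCAO_KD_39 and MCAO_KD_5, had positions of 1.29, 1.40 and 1.37. Without the 2 lesions farthest from the median position, r was -0.64. Within diets it was -0.65 in MCAO_KD (permutation, adjusted p = 0.0103) and -0.56 in MCAO_AL (permutation, adjusted p = 0.295).

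Slc1a3 moved the same way, with r = -0.45 (permutation p = 0.0137, adjusted p = 0.0275) and rho = -0.56 (permutation, adjusted p = 0.00324), and with r = -0.56 without the 2 farthest lesions, -0.47 in MCAO_KD (permutation, adjusted p = 0.0795) and -0.41 in MCAO_AL (permutation, adjusted p = 0.429). With library totals only the pooled r of Slc1a3 was -0.31 and no longer passed (permutation, adjusted p = 0.136), while its rho was -0.43 and passed (permutation, adjusted p = 0.0378). Its rho was -0.60 in MCAO_KD (permutation, adjusted p = 0.0154) and -0.51 in MCAO_AL (permutation, adjusted p = 0.233). Gja1 had r = 0.26 (permutation p = 0.160, adjusted p = 0.213) and rho = 0.20 (permutation, adjusted p = 0.370), and r = 0.12 without the 2 farthest lesions. Aqp4 had r = 0.06 (permutation p = 0.770, adjusted p = 0.770) and rho = -0.04 (permutation, adjusted p = 0.839), and r = -0.17 without the 2 farthest lesions. Aqp4 did not follow a line along this axis. Its highest lesions, MCAO_KD_23 at 2006 CPM and MCAO_KD_43 at 1717 CPM, MCAO_AL_61 at 1966 CPM, MCAO_AL_64 at 1751 CPM and MCAO_AL_65 at 1519 CPM, had positions between 0.94 and 1.07. The single lesions at either end of the axis were lower, with 511 CPM in MCAO_KD_27 at position 0.29 and 348 CPM in MCAO_KD_39 at position 1.40. Lesions of like position also differed. MCAO_KD_13 had 797 CPM at position 1.05, against 2006 CPM in MCAO_KD_23 at position 1.07. MCAO_KD_33 had 850 CPM at position 1.39, against 348 CPM in MCAO_KD_39 at position 1.40. No curve was fitted. Most genes follow this axis, since the median size of rho with it was 0.66 over 14643 genes, and a rho as large as that of Slc1a2 was found in 40.4% of them, of Slc1a3 in 60.9%, of Gja1 in 87.3% and of Aqp4 in 97.7%. What differs between lesions along this axis, tissue composition included, was not tested.

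**Figure D5:**
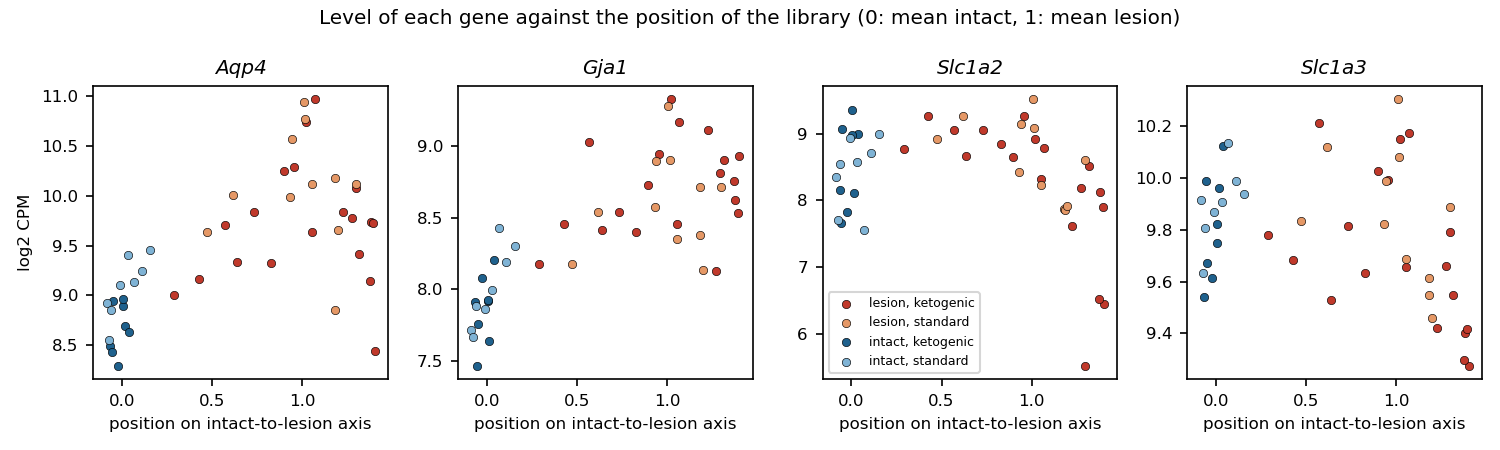
Log2 CPM of each gene (y axis) against the position of the library on the intact-to-lesion axis (x axis, 0 for the mean of intact brain and 1 for the mean of lesions), with a point for each of the 46 libraries. Slc1a2 is lowest in 3 MCAO_KD lesions at positions 1.29 to 1.40, and the 5 highest Aqp4 values lie between 0.94 and 1.07. Lower Aqp4 values lie there too, such as 797 CPM in MCAO_KD_13 at position 1.05, and no curve was fitted.

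Across the lesions, the 4 genes ranked from 138th to 6063rd among all genes for likeness to each other. By Spearman rho over the 30 lesions, among 14642 genes averaging 1 CPM or more, Slc1a3 ranked 141st for likeness to Aqp4 and 936th for likeness to Slc1a2. Slc1a2 ranked 138th for likeness to Slc1a3, and Aqp4 ranked 265th for likeness to Gja1. Other pairs ranked lower, with Gja1 6063rd and Aqp4 4728th for likeness to Slc1a2, and Gja1 3826th for likeness to Slc1a3. The share of genes with a higher rho was 0.96% for Slc1a3 with Aqp4 and 41.4% for Gja1 with Slc1a2. The nearest genes below were picked as the highest of all, so their rho is not set against those of the 4. The gene most like Slc1a2 was ENSRNOG00000005391 (rho = 0.943) and the gene most like Slc1a3 was ENSRNOG00000015461 (rho = 0.940). These are descriptions over the same 30 libraries, which differ in depth and in lesion position.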

How the data were processed

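The authors deposited raw, unnormalized read counts for 30452 Ensembl genes in 46 libraries. Per the submitters' processing notes, the build was mRatBN7.2 and the tools included HTSeq 0.7.2, HISAT2 2.0.5, Cufflinks, DESeq2 1.42.0, bcl2fastq 2.20, MultiQC 1.15 and FastQC 0.11.8. Per the labels' protocols, libraries were made from polyA RNA with a directional kit. Which annotation was counted, and with what strand setting, is not given in the sources used here, and overlapping and antisense genes cannot be told apart. The series-wide table held 39 further per-sample columns that were not used, and 0 cells differed from the per-sample files.

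Counts were fitted over all genes with edgeR 4.0.16 in R 4.3.3 (TMM scaling, filterByExpr, robust quasi-likelihood F test), each contrast on its own pair of groups and the interaction on all 46 libraries. Genes with a Benjamini-Hochberg adjusted p under 0.05, over all genes tested, were called. Log2 CPM used a prior count of 2. Ratios and correlations used two-sided permutation tests in Python 3.11.15 with NumPy 2.4.6, SciPy 1.17.1 and pandas 2.3.3. Ratio tests were exact where a group had 8 libraries, and the rest used 100000 resamples. Alternatives were RLE scaling, library totals only, other low-count filters, DESeq2 1.42.0, limma 3.58.1 voom with quality weights, 1 fit over all libraries, covariates, group medians and leaving out each library. No libraries of a group agreed within sampling noise (smallest chi-square per degree of freedom 12.8).

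The 4 genes were taken by ID, with no threshold on a measured value, but they and the lists were chosen with earlier results of these data known. Of the 30452 IDs, 0 matched the RefSeq gene table (GRCr8), so 16 lists of 162 genes, given by symbol, and the marker levels among them were not analysed here. The naming rule kept the 4 genes and at most 2 IDs most like them.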

Additional observations from a re-analysis of the deposited data

How the results depend on the processing

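No paired analysis was possible because the sample numbers in the labels are unique and no groups share them. The calls of Aqp4 and Gja1 as higher in lesions held on both diets under every alternative run. With all libraries in, the log2 fold changes under the other settings were 1.12 to 1.39 and 1.05 to 1.40 for Aqp4 on the ketogenic and standard diets, and 0.84 to 1.11 and 0.60 to 0.95 for Gja1. With 1 library left out they ran from 1.03 to 1.17 and 0.95 to 1.14 for Aqp4 and from 0.80 to 0.90 and 0.52 to 0.67 for Gja1, in the same order. In 92 fits that each left out 1 library, no call of the 4 genes changed and 1 direction did. Slc1a2 in Intact_KD against Intact_AL then ran from -0.00261 (without Intact_KD_47) to 0.24.

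With library totals only, MCAO_KD against Intact_KD gave 0.0632 for Slc1a2 and 0.15 for Slc1a3, and MCAO_AL against Intact_AL gave 0.55 for Slc1a2, now called, and 0.29 for Slc1a3, also called. Calls that were higher then made up 69.1% on the ketogenic diet and 76.6% on the standard diet, against 51.0% and 50.1% with TMM. The interaction for Aqp4 was -0.00523 with totals and -0.0349 with limma voom, which also gave 0.0221 for Slc1a3 in MCAO_AL against Intact_AL and -0.0217 for Gja1 by diet over both tissues. With a covariate for the count share of each library's top 20 genes, Gja1 in Intact_KD against Intact_AL was 0.0294.

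The count of genes called by diet over both tissues was 765, and 1417 with limma voom. By diet in intact brain it was 0, against 241 with DESeq2, 63 with 1 fit over all libraries and 0 to 170 with a library left out. By diet in lesions it was 117, against 183 with totals, 21 with no filter, 458 with DESeq2, 945 with limma voom, 77 with 1 fit, 1710 with lesion position as a covariate and 6 to 242 with a library left out. Of those calls, 62.4% were higher in MCAO_KD, against 75.2% under RLE and 33.3% under totals. The interaction called 2 genes with DESeq2 and 13 with limma voom, beside 0.

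With medians, the ratio of Gja1 to Slc1a3 by diet in intact brain was 0.00904, and in lesions Aqp4 to Gja1 was -0.36 and Slc1a2 to Slc1a3 was 0.00108. Leaving out a library gave, in MCAO_AL against Intact_AL, 0.34 to 0.50 for Aqp4 to Gja1 and 0.30 to 0.58 for Gja1 to Slc1a2, and in MCAO_KD against Intact_KD 0.98 to 1.26 for Gja1 to Slc1a2. By diet in intact brain it gave -0.61 to -0.39 for Aqp4 to Slc1a2, -0.39 to -0.27 for Aqp4 to Slc1a3 and -0.11 to 0.0270 for Gja1 to Slc1a3. By diet in lesions it gave -0.15 to 0.11 for Aqp4 to Slc1a2 and -0.57 to -0.39 for Aqp4 to Gja1.

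Correlations across lesions also moved. For Aqp4 with Slc1a2, r was 0.26 without the 2 farthest lesions, 0.27 in MCAO_KD and 0.37 with totals. In MCAO_KD it was 0.49 for Aqp4 with Gja1, 0.53 for Slc1a2 with Slc1a3, 0.35 for Slc1a3 with Gja1 (0.29 without the 2 farthest lesions) and -0.11 for Slc1a2 with Gja1, which was 0.61 in MCAO_AL and -0.0292 with totals. With position, r for Aqp4 was -0.17 without the 2 farthest lesions and -0.0156 in MCAO_AL, and r for Slc1a2 was -0.56 in MCAO_AL. For Slc1a3 r was -0.47 in MCAO_KD, -0.41 in MCAO_AL and -0.31 with totals. None of these r values with position passed. By rho, Slc1a3 did pass in MCAO_KD and with totals (permutation, adjusted p = 0.0154 and 0.0378). The cause was not tested for any of these changes. The interaction was not refitted with single libraries left out.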
